A study of Mus musculus with 4 samples.

Results

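The 9 genes described here, Sox7, Sox17, Sox18, Gja4, Gja5, Bmx, Hey2, Nr2f2 and Unc5b, carry the arterial or venous identity of endothelial cells, the cells that line vessels. They were found by symbol among 55416 features, each symbol matching 1 feature. Their joint detection was read in endothelial-gated cells, defined as cells with unique molecular identifiers (UMIs, counted mRNA molecules) of at least 3 of the 7 endothelial genes Pecam1, Cdh5, Kdr, Flt1, Emcn, Egfl7 and Plvap. Cells came from the femoral epiphysis, the cartilaginous end of the thigh bone that vessels and marrow invade after birth, of wild-type (WT) mice on days 7, 8, 10 and 12. Each day was 1 droplet single-cell library read at the 3′ end of transcripts, from animals whose number is not given. The series title names a passage of cartilage into blood stem cells by way of endothelium, and the members bear on which kind of endothelium the epiphysis held.

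Arteries and veins are told apart by transcription factors and signals that act before and after blood flow begins. The SoxF factors Sox7, Sox17 and Sox18 act together with Notch signalling, whose target Hey2 is a transcriptional repressor, to favour the arterial state, while the nuclear receptor Nr2f2 (COUP-TFII) holds Notch signalling down in veins. Gja4 and Gja5 encode gap-junction connexins of arterial endothelium, Bmx a cytoplasmic tyrosine kinase of the Tec family found in arterial endothelium and in granulocytes, and Unc5b a netrin receptor of arterial and sprouting endothelium.

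The promoters of Gja4, Gja5, Hey2 and Nr2f2 are shown because the results turn on these genes. Gja4 and Gja5 are connexin genes often detected in the same cells, and the Notch target Hey2 was detected with them. Nr2f2, the venous gene, had lower levels in cells with either connexin on days 10 and 12. The promoters were taken from RefSeq's GRCm38.p6 table, which held 6 of the 9 genes and not Sox7, Sox17 or Sox18. The counts rest on GRCm39. Each runs 5′ to 3′ on the gene's strand from 250 bases before to 50 bases after the start. These are Gja4 at chr4:127313990-127314289 (minus strand), Gja5 at chr3:97032152-97032451 (plus strand), Hey2 at chr10:30842734-30843033 (minus strand) and Nr2f2 at chr7:70366697-70366996 (minus strand). Capitals mark matches on either strand to the core of the Notch effector RBPJ (TGGGAA), a SOX motif (AACAAT), an ETS motif (CCGGAA) or a nuclear receptor motif (AGGTCA).
Gja4: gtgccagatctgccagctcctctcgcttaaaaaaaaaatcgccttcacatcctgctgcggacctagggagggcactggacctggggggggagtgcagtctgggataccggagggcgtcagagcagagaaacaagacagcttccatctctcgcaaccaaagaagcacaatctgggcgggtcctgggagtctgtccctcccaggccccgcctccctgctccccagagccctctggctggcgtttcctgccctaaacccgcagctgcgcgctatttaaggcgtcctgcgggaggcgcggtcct
Gja5: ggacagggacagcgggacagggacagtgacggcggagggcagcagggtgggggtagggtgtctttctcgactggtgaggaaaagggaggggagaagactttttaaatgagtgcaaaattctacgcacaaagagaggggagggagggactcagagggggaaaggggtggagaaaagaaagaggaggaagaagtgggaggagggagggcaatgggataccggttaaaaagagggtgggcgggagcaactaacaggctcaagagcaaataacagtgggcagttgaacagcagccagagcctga
Hey2: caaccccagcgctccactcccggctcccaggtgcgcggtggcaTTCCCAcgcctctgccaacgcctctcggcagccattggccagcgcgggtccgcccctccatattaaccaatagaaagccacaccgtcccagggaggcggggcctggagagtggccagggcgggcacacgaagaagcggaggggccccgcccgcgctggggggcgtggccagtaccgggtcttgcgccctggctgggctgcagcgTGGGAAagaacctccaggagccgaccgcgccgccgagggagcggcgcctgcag
Nr2f2: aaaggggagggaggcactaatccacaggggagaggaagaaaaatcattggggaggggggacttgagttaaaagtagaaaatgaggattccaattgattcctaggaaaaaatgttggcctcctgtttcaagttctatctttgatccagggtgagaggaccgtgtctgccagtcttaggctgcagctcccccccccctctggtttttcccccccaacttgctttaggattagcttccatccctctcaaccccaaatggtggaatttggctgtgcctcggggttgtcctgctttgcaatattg
The Hey2 promoter held 2 matches, both of the RBPJ letters, and the other 3 printed promoters held none of the 4 motifs. Of the promoters not printed, that of Bmx held 1 RBPJ match and that of Unc5b 1 ETS match. Of all 32851 promoters in the table, 25.6% held the RBPJ letters, 10.7% the SOX letters, 14.9% the ETS letters and 16.3% the nuclear receptor letters, and 2 of the 6 matched genes held the RBPJ letters. The letters are a description of these windows and not evidence of binding.

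The 4 libraries held between 44218720 and 169323978 UMIs, and 11309, 11464, 10028 and 16254 cells were kept on days 7, 8, 10 and 12. The endothelial gate took 61, 308, 787 and 726 of them, which was 0.539%, 2.69%, 7.85% and 4.47% of cells. Egfl7 was detected in 1.64% to 2.41% of gated cells and the other 6 gate genes in 68.2% to 93.7%, so the gate rested on those 6. Gated cells had a median of 4927, 3794, 8926 and 7851 UMIs, and at greater depth the gate is passed more easily. On day 10, 52.5% of gated cells had at least 5 gate genes, against 63.9%, 72.1% and 74.2% on days 7, 8 and 12. The gate also took cells with RNA of other types. At least 3 genes of an 8-gene chondrocyte list were found in 57, 267, 318 and 552 gated cells, and at least 3 of 6 leukocyte genes in 0, 2, 210 and 181. Summed dissociation-stress genes stood at 7066, 8834, 5898 and 2915 CPM (UMIs of a gene per 1000000 UMIs of all genes in the same cells) in gated cells and summed hemoglobin genes at 244, 1645, 26640 and 5889 CPM. The part of these differences in the results below was not tested. Barcodes shared by a pair of libraries numbered 72 to 282, and 1 of them was gated on both day 10 and day 12. With 1 library per day there is no replicate and no test. Values are CPM from summed UMIs with exact Poisson intervals, or shares of cells with exact Clopper-Pearson intervals. Intervals are at 95% and hold counting error alone.

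The SoxF genes, transcription factors of the endothelial lineage, stood far higher in gated than in other cells on each day. Sox7 stood at 130 CPM (interval 98.1 to 170), 147 CPM (130 to 167), 118 CPM (112 to 125) and 149 CPM (141 to 158) on days 7, 8, 10 and 12 in gated cells. In all other cells it stayed between 0.659 and 1.89 CPM. The lowest gated value, that of day 10, lay outside the intervals of days 8 and 12 but within that of day 7. This order depended on the gate: with at least 5 gate genes Sox7 had 128, 158, 193 and 179 CPM, highest on day 10. Sox17, the SoxF gene with the strongest tie to arteries, had 104 CPM (75.7 to 140), 93.9 CPM (79.9 to 110), 66.2 CPM (61.7 to 71.0) and 67.9 CPM (62.5 to 73.7) in gated cells. Its values on days 7 and 8 were both above those on days 10 and 12, with no overlap of the intervals. With a gate of at least 5 genes Sox17 had 97.1, 95.8, 104 and 78.6 CPM on days 7, 8, 10 and 12. The lower value of day 10 thus depended on the gate, while day 12 was lowest there too. Sox18, best known from lymphatic and early vascular development, was sparse, at 4.74, 6.46, 5.57 and 12.6 CPM from 2, 11, 67 and 107 UMIs. The day-12 value of Sox18 was above that of day 10 by 2.25-fold (interval 1.65 to 3.11).

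Joint detection of the SoxF genes was read cell by cell. UMIs of all 3 genes were found in 0, 3, 29 and 36 gated cells on days 7, 8, 10 and 12, and none of the 3 genes in 25, 141, 385 and 275. On day 12, 168 cells held both Sox7 and Sox17, against 119 cells from the product of their shares, and 71 held both Sox7 and Sox18, against 47.0. Deeper cells detect more of any gene: on day 12 Sox7-positive gated cells had a median of 11052 UMIs and Sox7-negative ones 4807. After each cell was thinned to 1000 UMIs, Sox7 and Sox17 shared 11 cells on day 12, against 8.07 from the product, and 6 on day 10, against 6.48. On day 8 the pair shared 8 thinned cells, against 4.23. These thinned counts are too few to place Sox7 and Sox17 against the product. By level, Sox17 was at 106 CPM in Sox7-positive and 18.9 CPM in Sox7-negative cells of day 10 (ratio 5.59, interval 4.58 to 7.00). On day 12 it was at 82.7 against 38.6 CPM (2.13, 1.74 to 2.66). At least 5 gate genes were found in 88.08% of Sox7-positive and 24.83% of Sox7-negative cells of day 10, whose part in this was not tested. Sox7 remained detectable in 14.8%, 13.6%, 11.6% and 13.9% of thinned gated cells on days 7, 8, 10 and 12.

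The connexin genes differed in how common they were. Gja4 was at 40.2 CPM (interval 23.4 to 64.4), 36.4 CPM (27.9 to 46.7), 48.2 CPM (44.3 to 52.3) and 65.9 CPM (60.6 to 71.6) on days 7, 8, 10 and 12 in gated cells. It was detected in 8.20%, 9.74%, 15.8% and 14.1% of them. Up to 71 UMIs of Gja4 fell in 1 cell of day 12. The day-12 level of Gja4 lay above that of day 8 by 1.79-fold (1.39 to 2.39) and above that of day 10 by 1.37-fold (1.22 to 1.54). Gja5 was rare, with 2, 5, 95 and 63 UMIs in 2, 3, 30 and 24 gated cells, which gave 4.74, 2.94, 7.90 and 7.42 CPM. The intervals of all 4 days overlapped, and the ratio of day 12 over day 8 was 2.14 (1.03 to 8.05).

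Bmx, Unc5b and Hey2 followed separate courses in gated cells. Bmx had 4.74, 6.46, 15.9 and 13.4 CPM on days 7, 8, 10 and 12, from 2, 11, 191 and 114 UMIs. Both later values lay above that of day 8, by 1.92-fold on day 12 (interval 1.12 to 4.28). Among gated cells of day 12, at least 3 leukocyte genes were found in 36.2% of Bmx-positive and 24.0% of Bmx-negative cells. Unc5b had 49.7 CPM (30.8 to 76.0), 44.0 CPM (34.6 to 55.2), 43.3 CPM (39.6 to 47.1) and 63.4 CPM (58.2 to 69.0). The day-12 value of Unc5b exceeded those of days 8 and 10 beyond counting error and lay within the interval of day 7. With a gate of at least 5 genes Unc5b had 59.5 CPM on day 10 and 66.5 CPM on day 12, a smaller difference. Hey2 was close to the limit of detection, with 3, 0, 57 and 24 UMIs in 1, 0, 27 and 18 gated cells. The 0 of 308 gated cells on day 8 allows up to 0.974% of cells with a UMI of Hey2 (3 counts of the total), at a median of 3794 UMIs per cell, and does not limit the share of cells that express it.

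Nr2f2, the venous regulator, differed between days by more than counting error. It stood at 90.0 CPM (interval 63.7 to 124), 111 CPM (95.7 to 128), 134 CPM (128 to 141) and 259 CPM (248 to 270) on days 7, 8, 10 and 12 in gated cells. It was detected in 31.2%, 34.1%, 38.9% and 56.8% of gated cells, and after thinning to 1000 UMIs in 6.56%, 10.1%, 12.1% and 18.6%. The day-12 level was above every earlier day beyond counting error. It was 2.80-fold that of day 7 (2.09 to 4.08), 2.32-fold that of day 8 (2.01 to 2.72) and 1.92-fold that of day 10 (1.80 to 2.05). With the gate set at 5 genes or more, Nr2f2 had 307 CPM on day 12 where day 7 had 94.3 CPM. Nr2f2 is also a gene of mural cells, the pericytes and smooth muscle around vessels. Without the gated cells that held at least 3 of 8 mural genes, which left 605 of 726 cells on day 12 and 53 of 61 on day 7, Nr2f2 had 245 CPM on day 12 where day 7 had 101 CPM.

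**Figure D1:**
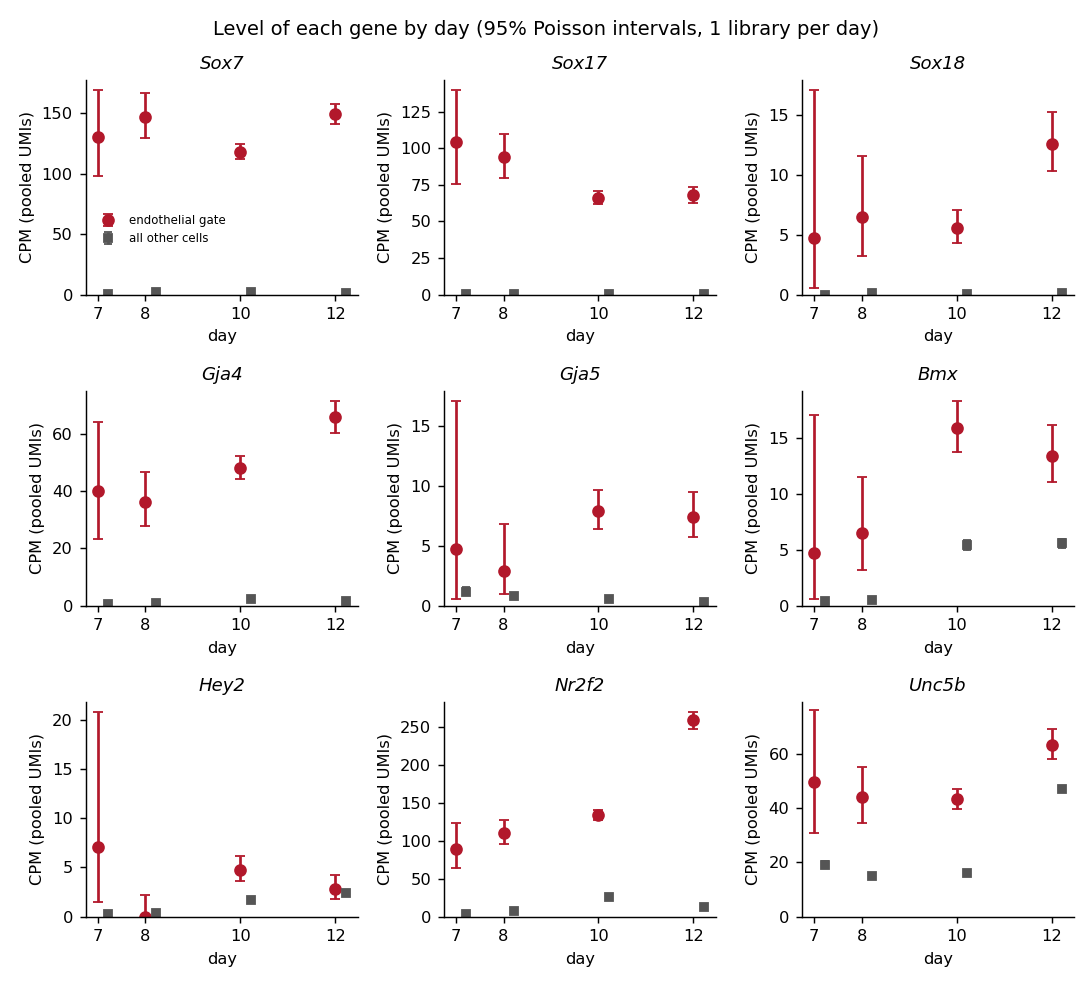
CPM of each gene by day in endothelial-gated cells (red circles) and all other cells (grey squares), with 95% Poisson intervals and 1 library per day. Nr2f2 is highest on day 12 (259 CPM), and Sox17 is lower on days 10 and 12 than on days 7 and 8. With a gate of at least 5 genes, not drawn here, Sox17 is not lower on day 10. Unc5b and Hey2 have other-cell levels near those of the gate on day 12.

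Day 12 against day 7 in gated cells put 4 of the 9 members at least 1.5-fold higher (Sox18, Gja4, Bmx and Nr2f2) and 2 at least 1.5-fold lower (Sox17 and Hey2). Over all 12560 genes with at least 20 UMIs in both sums together, 31.7% were at least 1.5-fold higher and 18.8% at least 1.5-fold lower, so the members' split was near that of all genes. The median log2 ratio was 0.29 over the members and 0.20 over all genes tested. Among the 4, the interval lay above no difference for Nr2f2 and Gja4 (1.55-fold, 1.01 to 2.83) and spanned it for Sox18 (0.719 to 22.2) and Bmx (0.767 to 23.7), which rested on 2 UMIs each on day 7. The 17 Gja4 UMIs of day 7 came from 5 cells, with 12 of them in 2 cells. The interval does not hold such clumping, so its lower end does not set Gja4 apart from no difference. Sox7 at 1.13-fold, Gja5 at 1.06-fold and Unc5b at 1.22-fold were under the limit. Gja5 also rested on 2 UMIs on day 7, and its log2 ratio was 0.085 with 1 UMI added and 0.337 with 0.5 UMI added. Sox17 was 1.57-fold lower on day 12 (day-12 over day-7 ratio 0.480 to 0.907), and Hey2 rested on 3 UMIs of 1 cell on day 7. With a gate of 5 genes the Sox17 log2 ratio was -0.34, under the 1.5-fold limit, and without the 6% of cells with the most UMIs the count of higher members was 2. Against day 8, 6 members were at least 1.5-fold higher on day 12 and 0 lower, where 38.1% and 13.6% of all genes were. Hey2 was among the 6, with 0 UMIs on day 8, and was 1.60-fold higher with these taken as 3. Its intervals overlapped, at 0 to 2.165 CPM on day 8 and 1.81 to 4.20 CPM on day 12. Against day 10, Sox18 and Nr2f2 were at least 1.5-fold higher on day 12 and Hey2 was 1.64-fold lower, where 11.2% and 15.2% of all genes were higher and lower.

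Outside the gate, each gene had its own pattern, and the SoxF genes separated most cleanly. On day 12, Sox17 stood 245-fold (interval 183 to 349) higher in gated than in all other cells, at 67.9 against 0.272 CPM, rank 7 of 19946 genes. Sox7 was 132-fold higher, Sox18 83.8-fold, Gja4 45.0-fold, Gja5 21.7-fold, Nr2f2 20.4-fold and Bmx 2.43-fold. The gate held 93.1% of all Sox17 UMIs, 87.7% of Sox7, 82.3% of Sox18 and 70.8% of Gja4, against 11.5% of Bmx, 6.77% of Unc5b and 5.97% of Hey2. In all, 7 of the 9 members were at least 2-fold higher in gated cells, as were 12.7% of all genes tested. Unc5b at 1.36-fold and Hey2 at 1.23-fold (0.748 to 1.79) were not. On days 7, 8 and 10 the counts were 6 of 6, 7 of 7 and 9 of 9 members with at least 20 UMIs, with 39.1%, 16.6% and 11.3% of all genes. Gja5 on day 7 rested on 2 gated UMIs (ratio interval 0.474 to 15.3). The day-7 share is raised by the 1 UMI added to each sum. The gate held 422427 UMIs against 42466852 in other cells, so a gene with no gated UMI could pass 2-fold. In endothelial-gated cells of day 12, with a median of 7851 UMIs, the shares with a UMI were 52.8% for Sox7, 31.0% for Sox17, 14.1% for Gja4, 3.31% for Gja5, 2.48% for Hey2, 56.8% for Nr2f2 and 24.4% for Unc5b. In leukocyte-gated cells, with a median of 4514 UMIs, the same shares were 0.569%, 0.183%, 0.549%, 0.264%, 0.467%, 2.36% and 4.31%. These cells held fewer than 3 gate genes by definition. Free RNA in droplets may add to these shares and was not measured on its own.

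Cells outside the gate were grouped by the marker list of which they detected the largest share, with at least 3 genes of it. Mural-gated cells, 204 on day 10 and 120 on day 12, carried more Nr2f2 than the endothelial gate. The endothelial gate had 111, 134 and 259 CPM of Nr2f2 on days 8, 10 and 12, against 407, 842 and 754 CPM in mural-gated cells. Among the other groups with at least 50 cells on day 12, the next were fibroblast-gated cells with 44.6 CPM (38.2 to 51.7) and reticular-gated stroma with 39.9 CPM (34.0 to 46.6), which did not differ beyond counting error. Glial-gated cells, 6 in number, held 6 UMIs of Nr2f2 and were too few to place in the order. Gja4 was likewise found in mural-gated cells, at 55.7, 60.7 and 132 CPM on days 8, 10 and 12. The mural level of Gja4 on day 12 (107 to 160) lay above that of the endothelial gate on the same day. All 3 SoxF genes were at or near 0 in mural-gated cells, with 0 UMIs of Sox17 and of Sox7 on day 12, where 0 UMIs allow up to 3.87 CPM (3 counts). Gja5 was at 7.42 CPM (5.70 to 9.49) in the endothelial gate of day 12, against 2.58 CPM (0.312 to 9.31) from 2 UMIs in mural-gated cells, which overlap.

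Hey2 and Unc5b had most of their UMIs outside the endothelial gate on day 12. Hey2 was at 50.3 CPM (35.7 to 68.7) in mural-gated and 30.6 CPM (25.5 to 36.5) in reticular-gated cells of day 12, whose intervals met. The endothelial gate, at 2.83 CPM, and osteoblast-gated cells, at 2.73 CPM, did not differ beyond counting error for Hey2. Reticular-gated cells, the Cxcl12-producing stroma of marrow, were 286 in number and held 31.1% of all Hey2 UMIs of day 12. Unc5b was highest in osteoblast-gated cells, the bone-forming lineage, at 177 CPM (169 to 185) on day 12 and 161 CPM on day 10. It followed in reticular-gated cells with 154 CPM (143 to 167), mural-gated cells with 103 CPM (81.8 to 128), the endothelial gate with 63.4 CPM (58.2 to 69.0) and chondrocyte-gated cells with 53.5 CPM (51.7 to 55.3). Neighbours in this order did not overlap in their intervals. Chondrocyte-gated cells, the largest group, held 42.8% of all Unc5b UMIs of day 12, with levels of 19.5, 16.4, 27.4 and 53.5 CPM on days 7, 8, 10 and 12.

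Bmx had most of its UMIs in leukocyte-gated cells on days 10 and 12. On days 7 and 8, with 18 and 34 UMIs in all, chondrocyte-gated cells held 83.3% and 52.9% of them and leukocyte-gated cells 5.56% and 8.82%. On day 12 Bmx stood at 13.4 CPM (interval 11.1 to 16.1) in the endothelial gate, against 19.1 CPM (17.7 to 20.6) in leukocyte-gated cells, which held 71.2% of all its UMIs. The class was split by neutrophil, macrophage and B-lineage markers after the leukocyte values had been seen, and Bmx was highest in cells with neutrophil markers. On days 10 and 12, cells with neutrophil markers had 45.9 and 67.9 CPM and Bmx was detected in 29.9% and 25.8% of them. Macrophage-marked cells had 3.82 and 7.79 CPM and B-lineage cells 1.55 and 0.948 CPM on the same days. The other leukocyte-gated cells, 2155 on day 12, had 11.0 and 17.05 CPM. Neutrophil-marked cells held 84.2% of the class's Bmx UMIs on day 10 and 51.3% on day 12, and the other leukocyte-gated cells 8.45% and 36.7%.

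**Figure D2:**
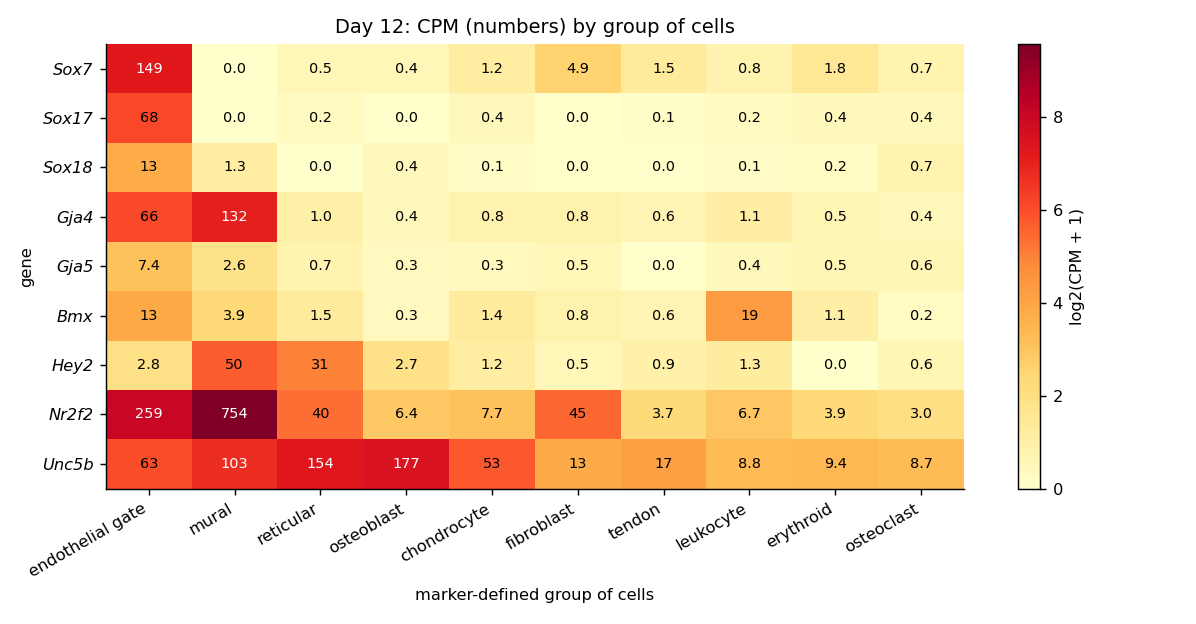
CPM on day 12 of the 9 genes (rows) in endothelial-gated cells and 9 other marker-defined groups (columns), with colour on a log2(CPM + 1) scale and the CPM printed. The 3 SoxF genes are highest in the endothelial column, Nr2f2 and Gja4 are highest in mural-gated cells, Unc5b in osteoblast-gated cells and Bmx in leukocyte-gated cells.

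Among gated cells the arterial genes were detected together. On day 12, 21 of the 24 Gja5-positive cells also held Gja4, against 3.37 cells from the product of the shares, and on day 10 23 of 30 did, against 4.73. Gja5 and Bmx were found together in 14 cells of day 12 (product 1.92) and 17 of day 10 (3.05), and Gja5 and Hey2 in 7 (0.595) and 10 (1.03). Gja4 and Unc5b met in 73 cells of day 12 (24.9), 66 of day 10 (23.5) and 17 of day 8 (4.77). Most Gja5-positive cells thus also counted as Gja4-positive on both days. Sox17 and Gja4 met in 72 cells of day 12 (31.6), 77 of day 10 (38.3) and 11 of day 8 (8.28). Gja5-positive cells were deeper than Gja5-negative ones, with medians of 16023 against 7793 UMIs on day 12. After thinning to 1000 UMIs, Sox17 and Gja4 met in 12 cells of day 12, against 2.56 from the product, in 11 of day 10, against 2.85, and in 0 of day 8, against 1.31. Sox7 and Gja4 met in 7 thinned cells of day 12 (4.45) and 0 of day 10 (4.63). Gja4 and Unc5b then met in 10 cells of day 12 (1.63) and in 2 of day 10 (1.07). The Gja5 pairs were too sparse at this depth to read: Gja4 and Gja5 met in 2 thinned cells of day 12 (0.176) and 0 of day 10 (0.305), and Gja5 and Hey2 in 0 on both days.

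Levels of Sox17 by connexin detection were compared with those of Sox7. Sox17 was at 207 CPM in Gja4-positive and 39.6 CPM in Gja4-negative gated cells of day 12, a ratio of 5.23 (interval 4.43 to 6.18). On day 10 it was at 214 CPM in Gja4-positive and 33.9 CPM in Gja4-negative cells. Around Gja5, Sox17 was at 365 CPM in positive and 52.2 CPM in negative cells of day 12. Sox7 differed less, at 235 CPM in Gja4-positive and 132 CPM in Gja4-negative cells of day 12. The ratio of Sox17 lay above that of Sox7 by either connexin on days 10 and 12, with intervals that do not overlap (Sox7 by Gja4 on day 12 1.57 to 2.02). Day 8 did not show this: by Gja4 the ratio was 1.15 (0.665 to 1.76) for Sox17 and 0.629 (0.355 to 0.959) for Sox7, which overlap.

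Nr2f2 was detected less often than the product of shares with the connexins. Of the Gja5-positive cells, 7 of 24 on day 12 (product 13.6) and 5 of 30 on day 10 (11.7) held Nr2f2. Gja4 and Nr2f2 met in 41 cells of day 12 (57.9) and 44 of day 10 (48.2). By level, Nr2f2 was at 72.6 CPM in Gja5-positive and 269 CPM in Gja5-negative cells of day 12, and at 44.8 CPM in Gja5-positive and 138 CPM in Gja5-negative cells of day 10. In Gja4-positive cells it was at 102 CPM, against 291 CPM in Gja4-negative cells, on day 12, and at 93.9 against 143 CPM on day 10. Lower Nr2f2 with either connexin held on both days. Gated cells of day 12 with at least 3 mural genes made up 19.6% of Gja4-positive and 16.2% of Gja4-negative cells, and 23.8% of Nr2f2-positive and 7.33% of Nr2f2-negative cells, whose part in this was not tested. Around Sox7 the relation was the other way: Nr2f2 was at 307 CPM in Sox7-positive and 163 CPM in Sox7-negative cells of day 12. These cells also differed in the gate. At least 5 gate genes were found in 92.95% of Sox7-positive and 53.35% of Sox7-negative cells, whose part in this was not tested. With Bmx the days differed, since Nr2f2 was at 169 CPM in Bmx-positive and 267 CPM in Bmx-negative cells of day 12 but at 223 CPM in Bmx-positive and 120 CPM in Bmx-negative cells of day 10.

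**Figure D3:**
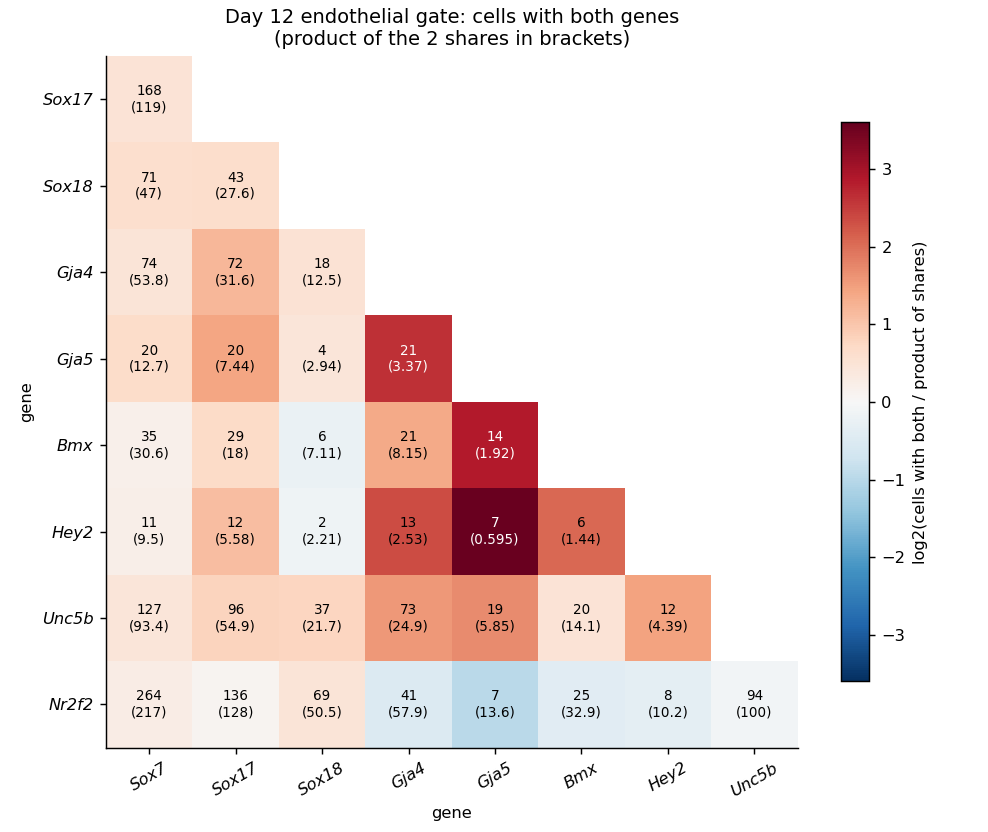
Pairs of genes in the 726 endothelial-gated cells of day 12. Each square gives the number of cells with both genes, with the number from the product of the 2 shares in brackets, and colour shows their log2 ratio. The pairs of Gja5 with Hey2 (7 cells, product 0.595), Bmx (14, 1.92) and Gja4 (21, 3.37) lie furthest above the product, and the pairs of Nr2f2 with the connexins lie below it.

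The arterial genes other than Sox7 and Sox18 (Sox17, Gja4, Gja5, Bmx, Hey2 and Unc5b) were counted per cell to set them against Nr2f2. At least 2 of these 6 were detected in 7, 35, 156 and 150 gated cells of days 7, 8, 10 and 12. Among them, Nr2f2 was detected in 28.6%, 25.7%, 48.1% and 48.0% of cells (interval on day 12 39.8% to 56.3%). Among gated cells with none of the 6 genes, Nr2f2 was detected in 19.4%, 31.7%, 30.6% and 55.6% (day 12 50.5% to 60.7%). The order of the 2 subsets differed between days, and on day 12 the intervals overlapped. Depth differed between the subsets: cells with at least 2 of the genes had a median of 11726 UMIs on day 12, against 5747 in cells with none. After thinning to 1000 UMIs, Nr2f2 was found in 0 of 28 cells with at least 2 of the genes on day 12 (3 counts of 28 allow up to 10.7%), against 20.1% of 612 cells with none. On day 10 it was found in 1 of 26, against 12.5% of 679, and on day 8 in 0 of 9, against 10.5% of 248. Few cells passed 2 of the genes at 1000 UMIs, and with 1 of the genes in place of 2 the thinned share on day 12 was 10.5%.

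CPM levels show the relation without a detection threshold for Nr2f2. On day 12, Nr2f2 was at 281 CPM in cells with none of the 6 genes, 330 CPM with 1, 183 CPM with 2 and 112 CPM (92.4 to 134) with 3 or more. On day 10 the values were 107, 154, 203 and 95.2 CPM. The level of Nr2f2 was lowest in cells with 3 or more genes on both days, but on day 10 its interval (81.6 to 110) overlapped that of cells with none (97.5 to 117), and the highest value fell in cells with 2. On day 8 the values were 121, 122, 60.5 and 36.7 CPM, the last from 3 UMIs. Sox7 was higher with each step on days 10 and 12, at 123, 136, 162 and 249 CPM on day 12 and 58.4, 118, 175 and 214 CPM on day 10. Intervals of neighbouring steps overlapped from none to 2 genes on day 12, and from 2 to 3 or more on day 10. The earlier days had no such order, at 130, 178, 132 and 135 CPM on day 8 and 162, 141, 35.0 and 194 CPM on day 7. The steps also differed in the gate. On day 10, 149 of the 419 cells with none of the 6 genes had at least 5 gate genes. Among the 156 cells with at least 2 of the 6, 124 did, and the part of this in the steps was not tested. With the gate at 5 genes or more, Nr2f2 was detected in 52.3% of cells with at least 2 of the 6 genes and 73.8% of cells with none on day 12, and in 54.8% and 56.4% on day 10. Without gated cells that held at least 3 mural genes, the shares were 39.1% and 53.0% on day 12, and 38.0% and 28.7% on day 10.

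**Figure D4:**
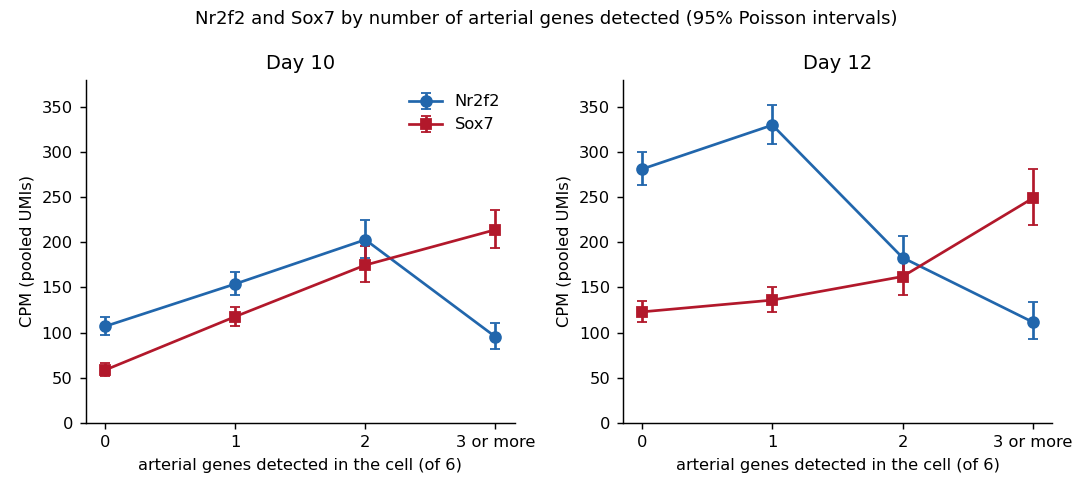
CPM of Nr2f2 (blue circles) and Sox7 (red squares) in endothelial-gated cells grouped by how many of Sox17, Gja4, Gja5, Bmx, Hey2 and Unc5b were detected, on day 10 (left) and day 12 (right), with 95% Poisson intervals. On day 12 Nr2f2 is at 112 CPM in cells with 3 or more genes and 281 CPM in cells with none, while Sox7 is at 249 and 123 CPM.

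The genes that went with the arterial members were read by setting gated cells with at least 2 of the 6 genes (arterial-detected) against gated cells with Nr2f2 and none of the 6 (Nr2f2-only). These were 156 against 128 cells on day 10 and 150 against 213 on day 12. The members chose the cells, so they and the gate genes were left out of the test set. On both days alike, 139 of 10847 genes (1.28%) were at least 2-fold higher in arterial-detected cells and 126 (1.16%) at least 2-fold lower. The 10 most constant higher genes were Nebl, Tmem178, Bglap2, Sema3g, Depp1, Dkk2, Lrrc3b, Hey1, Esm1 and Magix. Sema3g, a secreted semaphorin of arterial endothelium, was at 118 CPM in arterial-detected and 5.22 CPM in Nr2f2-only cells of day 12. On day 10 it was at 88.4 CPM in arterial-detected cells, from 316 UMIs, where Nr2f2-only cells held 8 UMIs. Hey1, the Notch target related to Hey2, was at 107 against 5.22 CPM on day 12 and 88.4 against 9.75 CPM on day 10. Esm1, a secreted proteoglycan of sprouting tips, was at 68.7 against 6.17 CPM on day 12 and 172 against 21.0 CPM on day 10. Bglap2 is an osteoblast gene and not an arterial one. The 10 most constant lower genes were Pld5, Siglech, Stab2, Ccr9, Rarb, Gm41414, Ret, Ackr1, Pstpip1 and Bin2. Stab2, a scavenger receptor of sinusoids, was at 21.3 against 124 CPM on day 12 and 4.48 against 18.0 CPM on day 10. Ackr1, a chemokine-binding receptor of venules, was at 12.1 against 63.2 CPM on day 12 and 26.6 against 96.8 CPM on day 10. Siglech and Ccr9 are genes of plasmacytoid dendritic cells.

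Lists of vessel genes that hold none of the members divided along the same line. Of other arterial genes, 13 of 22 tested were at least 2-fold higher in arterial-detected cells on day 10 and 11 of 21 on day 12, and 0 were at least 2-fold lower on either day. Over all genes tested the shares were 4.13% higher and 4.53% lower on day 10 and 4.11% and 4.70% on day 12. The list's median log2 ratio was 1.33 on day 10 and 1.11 on day 12, beside -0.03 and -0.08 over all genes. Efnb2, the arterial ephrin ligand, was at 374 against 81.7 CPM on day 12 and 211 against 48.8 CPM on day 10. Mgp, a matrix protein on the same list, differed between days, at 329.8 against 569 CPM on day 12 and 1232 against 292 CPM on day 10. The Notch ligand Dll4 was at 125 against 37.0 CPM on day 12 and 117 against 25.5 CPM on day 10. Of 17 Notch genes, 7 were at least 2-fold higher on day 12 (Notch3, Notch4, Dll4, Jag1, Jag2, Hey1 and Heyl) and 5 on day 10, and 0 were lower. Notch3 and Heyl are known from mural cells. Smad6, an inhibitor of BMP signalling, was higher on both days among 14 BMP and flow genes, at 49.8 against 23.3 CPM on day 12.

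Some sinusoidal and venous genes were lower in arterial-detected cells, more of them on day 12 than on day 10. Of sinusoidal genes, 0 of 11 were at least 2-fold higher on either day, and 7 were at least 2-fold lower on day 12 and 3 on day 10. Of other venous genes, 4 of 14 were lower and 1 higher on day 12, and 2 lower and 0 higher on day 10, with Il6st counted in both lists on day 12. Selp, an adhesion molecule of venules, was at 10.9 CPM in arterial-detected and 103 CPM in Nr2f2-only cells of day 12, but at 234 and 233 CPM on day 10. Lyve1, of sinusoids and lymphatics, was at 4.42 against 78.4 CPM on day 12 and 54.3 against 54.8 CPM on day 10. Ephb4, the venous receptor of Efnb2, was under 2-fold on both days, at 128 against 156 CPM on day 12.

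Genes of other cell types differed between the same cells. Of 8 mural genes, 5 were at least 2-fold higher in arterial-detected cells on day 12 and 3 on day 10, with a summed list level of 953 against 625 CPM on day 12 and 1736 against 1239 CPM on day 10. Of 6 osteoblast genes, 5 were higher on day 12 and 3 on day 10. Of 6 leukocyte genes, 5 were lower on day 12 and 3 on day 10, with sums of 248 against 627 CPM on day 12 and 254 against 578 CPM on day 10. Arterial-detected cells had a median of 11726 UMIs and Nr2f2-only cells 7324 on day 12, and 16797 and 6876 on day 10. The part of these cells and of depth in the list counts was not tested. With gated cells that held at least 3 mural genes left out, 138 genes were higher on both days, and with those that held at least 3 leukocyte, erythroid or chondrocyte genes left out, 64 were.

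**Figure D5:**
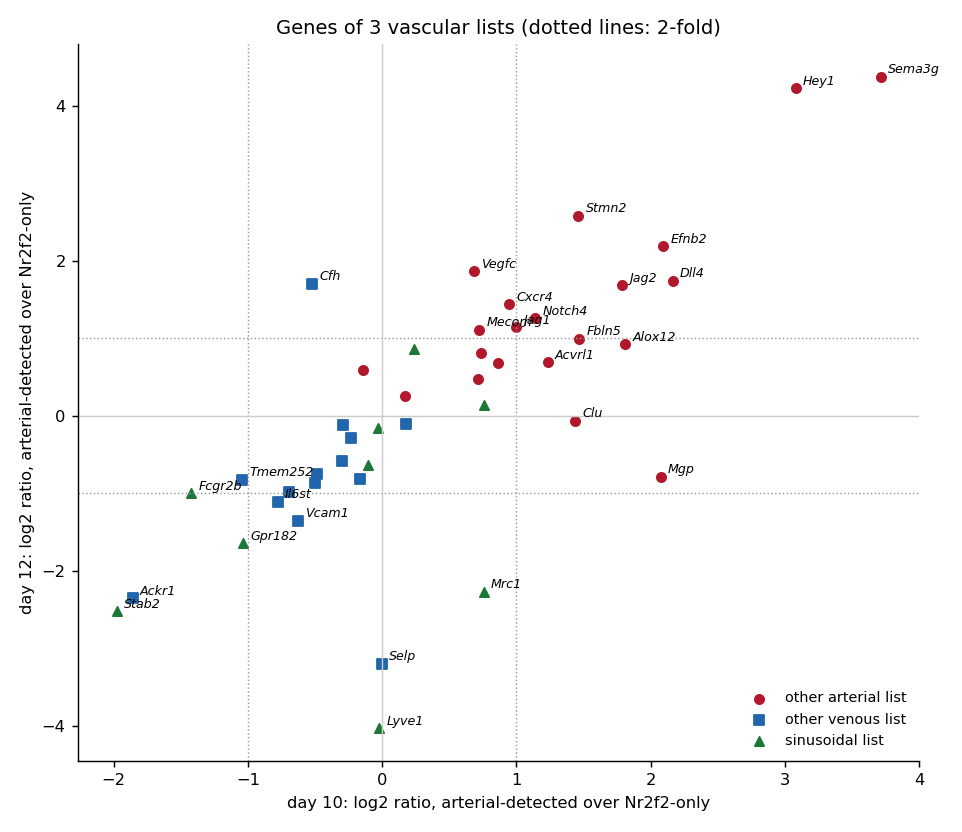
Log2 ratio of CPM, arterial-detected over Nr2f2-only gated cells, on day 10 (horizontal) and day 12 (vertical) for genes of the other arterial (red circles), other venous (blue squares) and sinusoidal (green triangles) lists that had at least 20 UMIs on both days. Arterial genes lie mostly above 0 on both axes, with Sema3g and Hey1 furthest, and Stab2 and Ackr1 lie below -1 on both, while Selp and Lyve1 are low on day 12 alone.

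The genes most like each member were found by Pearson's correlation of log2(CPM + 1) over 31 sums, each of 1 marker-defined group on 1 day, among 20718 genes. The sums of a day share a library, so the values are a description. Sox7 was nearest Gpihbp1 (0.97), Tie1, Podxl, Nos3 and Aplnr, and Sox17 nearest Fam167b (0.98), Gpihbp1, Cldn5, Nos3 and Kcne3. Sox18 was nearest Ces2e (0.98), Gpr182, Cldn5, Dll4 and Dipk2b. Gja4 was nearest Esam (0.98), Pcdh1, Bcam, Vsig2 and Mcam, and Gja5 nearest Tcf15 (0.90), Crybb3, Pcdh12, Slc29a4 and Gm13387. Bmx was nearest Sigirr (0.92), Ppp1r16b, Mmp25, Sh3bp5 and Grap. Hey2 was nearest Sstr2 (0.88), Gm6249, Trpc6, Notch3 and Heyl, the last 2 being Notch genes of mural cells. Nr2f2 was nearest Fzd4 (0.95), Col4a1, Abcc9, Col18a1 and Tspan12, and Unc5b nearest Tanc1 (0.89), Lmo7, Cdr2l, Tead2 and Gpc1. Among the members, Sox7 and Sox17 were most alike (0.94), and Sox17 and Nr2f2 were at 0.39.

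Opposite-strand genes overlap some members in the GENCODE M21 annotation, with the use of strand in counting not given. Over all barcodes of day 12, Nr2f2 had 4244 UMIs and its antisense neighbour B130024G19Rik 461, while Gja5 had 117 and Gpr89, which overlaps it on the other strand, 2394. If strand was not used, reads of Gja5 and Gpr89 cannot be told apart where they overlap. Egfl7 of the gate had 24 UMIs, against 860 of Gm20532, which overlaps it on the same strand, and the part of this overlap in its low detection was not tested.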

How the data were processed

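The deposited values were raw counts of UMIs per gene and barcode, not normalized by the authors, as whole numbers in the files show. Cells were encapsulated and libraries made with a MobiDrop 3′ kit per the labels' protocols, whose digestion step names a bowel tumour tissue, so the steps used for the epiphysis are unsure. The submitters' processing notes name GRCm39, with the aligner and counter not given in the sources used here. Members and gene lists were chosen with earlier results of these data known. Cells with at least 500 genes, 1000 UMIs and at most 15% mitochondrial UMIs were kept. No doublet caller was run, and an alternative left out the 6% of cells with the most UMIs. Counts were summed per group of cells and scaled to CPM. Ratios had 1 UMI added to each sum, and genes needed 20 UMIs. A count of 0 was bounded by 3 counts. Named genes were the members, the lists, the 10 per direction with the largest smaller ratio over days 10 and 12, and the 5 most alike per member. Ratios and intervals were tested on simulated counts. Python 3.11.15, NumPy 2.4.6, SciPy 1.17.1, pandas 2.3.3 and matplotlib 3.10.9 were used.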

Additional observations from a re-analysis of the deposited data

How the results depend on the processing

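The summed level of the 9 genes in gated cells of day 12 was 641 CPM. It was 362, 723 and 749.5 CPM with gates of at least 2, 4 and 5 genes, 797 CPM with the gate read on thinned counts, 925 CPM without cells holding 3 leukocyte, erythroid or chondrocyte genes, and 665 CPM without the 6% of cells with the most UMIs. The count of 4 members higher on day 12 than on day 7 became 2 with a gate of 2 genes, without the top 6% of cells, or relative to the gate genes, 6 with the gate read on thinned counts or day 8 as baseline, and 5 with a gate of 5 genes or without mural-marked cells. It became 1 without blood- or chondrocyte-marked cells, which left 4 cells with 0 UMIs of any member on day 7, and 1 with day 10 in place of day 12. The count of 7 members higher in gated than in other cells became 0 relative to the gate genes, which other cells lack by construction, and was 6 to 8 otherwise. The 48.0% of arterial-detected cells of day 12 with Nr2f2 became 58.0% when 1 of the 6 genes sufficed, 29.6% without blood- or chondrocyte-marked cells, 39.1% without mural-marked cells, 4.17% after thinning to 2000 UMIs and 0 after thinning to 1000. The 139 genes higher on both days became 64 without blood- or chondrocyte-marked cells, 269 with no UMI minimum and 33 after thinning. Among members past 1.5-fold on day 12 over day 7, the log2 ratio changed sign for Sox18 (-0.33) when day 10 replaced day 12. It also did so for Hey2 with day 8 as baseline, at 2.33 with 1 UMI added to the 0 UMIs of day 8. Taking those 0 UMIs as 3 gives 1.60-fold, and the Hey2 intervals of days 8 and 12 overlap. Without blood- or chondrocyte-marked cells, Sox18 (-2.69), Gja4 (-0.070) and Bmx (-1.88) also had a negative sign, but with 0 UMIs on day 7 these values are set by the added UMI and say nothing of direction. The members under 1.5-fold took either sign across the alternatives, between -0.36 and 0.57 for Sox7, -4.43 and 1.10 for Gja5, and -0.99 and 0.82 for Unc5b, where 0.57, -4.43 and -0.99 come from that same void setting. The cause of the other changes was not tested. Gates of at least 5 genes, the mural exclusion and the day-10 values were chosen after seeing the data. Of the 64 alternative values of these 5 results, 44 were within 1.5 times the count, or within the 95% interval of the level or share. No paired analysis was possible because each day is 1 library and no label ties the libraries to a shared animal or batch. Depth limits Sox18, Gja5, Bmx and Hey2 most, which rest on 2 to 3 UMIs on day 7.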

Other observations

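Guidance genes related to Unc5b were read across days in endothelial-gated cells. Of 15 genes of netrins, Slits and their receptors and related ligands, 12 were tested, and 8 were at least 1.5-fold higher on day 12 than on day 7 and 0 lower, beside 31.7% and 18.8% of all genes. Markers of other cells were also higher in the same gated cells, with summed osteoblast genes at 485 CPM on day 12 where day 7 had 75.8, fibroblast genes at 231 where day 7 had 104, and leukocyte genes at 511 where day 7 had 9.47. All 6 osteoblast genes and 4 of 5 fibroblast genes were at least 1.5-fold higher. Their part in the guidance genes was not tested. Robo1, a Slit receptor, was at 328 CPM (interval 316 to 340) on day 12, against 192 CPM (152 to 238) on day 7. Flrt2, a membrane ligand of Unc5 receptors, was at 117 CPM (110 to 125) on day 12, against 61.6 CPM (40.2 to 90.2) on day 7, and was at least 2-fold lower in arterial-detected than in Nr2f2-only cells on days 10 and 12. Robo4, the endothelial Robo, was at 135 CPM on day 12 where day 7 had 152 CPM, with intervals that overlap. Ntn1, which encodes the ligand netrin, had 302 of 8496378 UMIs in gated cells on day 12. On day 7 it had 1 of 422427 UMIs, too few to give the size of the difference.

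Among vessel genes outside the members, Ephb4, the venous receptor, was at 127 CPM (120 to 135) on day 12, against 42.6 CPM (25.3 to 67.3) on day 7. Efnb2, its arterial ligand, was at 167 CPM (159 to 176) on day 12, against 144 CPM (111 to 186) on day 7. Selp was at 53.9 CPM on day 12 where day 7 had 417 CPM, and Gja1, a connexin gene of many cell types, at 156 CPM on day 12 where day 7 had 417 CPM. Both lower levels came with a lower sum of stress genes, at 2915 CPM on day 12 where day 7 had 7066 CPM, in the same cells, whose part in them was not tested.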
